A study of Mus musculus with 72 samples.

Results

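The pituitary response of male mice to a high fat diet was described in the offspring of dams that had been fed freely. The comparison used the 6 pituitary libraries labelled FED-HFD and the 6 labelled FED-CTRL, which are 12 of the 72 libraries of the study, and it was read across all genes. The mice were sighted FVB.129P2 animals whose dams had free access to food (FED). From 8 weeks of age they ate a diet with 10% fat (FED-CTRL) or 45% fat (FED-HFD). The labels give 10 or 16 weeks on the diet, and the methods give 10 weeks for the mice that were sequenced. A further 12 pituitaries came from offspring of dams restricted by 20% (CR20-CTRL and CR20-HFD), and the same FED mice also gave epididymal white adipose tissue (eWAT) and liver. Each library held the pituitary of 1 mouse, so n = 6 in every group, and RNA came from an aliquot of the whole homogenised gland. Which mice were littermates is not given, so the p-values treat all mice as independent.

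The anterior pituitary releases its hormones from distinct classes of cell. Somatotropes make growth hormone (Gh), lactotropes prolactin (Prl), corticotropes the ACTH precursor (Pomc), thyrotropes thyrotropin (Tshb) and gonadotropes the gonadotropins (Fshb, Lhb), with Cga as the alpha subunit that thyrotropes and gonadotropes share. Melanotropes of the intermediate lobe, stem and folliculostellate cells, fenestrated capillaries, fibroblasts and resident macrophages fill the rest of the gland. Its cells carry receptors for leptin, insulin, thyroid hormone and glucocorticoids, through which nutritional state can reach hormone output. In bulk tissue, a change in the number of cells of a type and a change in RNA per cell cannot be told apart.

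Total counts ranged from 19873969 to 23666117 in FED-CTRL and from 18299494 to 23393946 in FED-HFD, and 3 counts correspond to 0.127 to 0.164 CPM, the counts scaled to library size. The defining pituitary markers were present, and Gh alone took 20.7% to 30.9% of the counts in FED-CTRL and 22.3% to 32.9% in FED-HFD. Of 55416 genes in the table, 16657 passed the filter on low counts. Of the 6 FED-HFD libraries 3 stood apart. The library of mouse 10 carried brown adipocyte transcripts, with a summed level of 439 CPM over 9 genes against 28.5 to 68.9 CPM in the other 11 mice. Mouse 12 had the highest immediate early genes and mouse 40 the highest interferon-stimulated genes. The erythrocyte genes summed to 13924 CPM in FED-HFD mouse 13 and to 5373 CPM in FED-CTRL mouse 16, against group medians of 1944 and 1873 CPM.

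No gene passed an adjusted p-value of 0.05 between FED-HFD and FED-CTRL (0 of 16657, 0%) by edgeR's quasi-likelihood test with Benjamini-Hochberg adjustment, and the smallest adjusted p-value was 0.0632. DESeq2 called 19 genes, and limma with voom and quality weights, the test of the study's methods, called 0. Leaving out FED-HFD mouse 11 gave 17 genes and leaving out mouse 23 gave 2, while leaving out any other single mouse gave 0. At an unadjusted p-value under 0.05 there were 1606 genes (9.64%, where a test with no difference gives 5%). Of these, 734 (4.41%) were higher and 872 (5.24%) lower in FED-HFD, by a median absolute difference of 0.31 in log2 fold change (log2FC, FED-HFD minus FED-CTRL). With an offset for the GC content of the transcripts in each library the split was 842 higher and 644 lower. With an absolute log2FC of at least 0.58 as well, 283 genes were higher (1.7%) and 88 lower (0.528%). The 2 groups did not overlap in 64 genes (0.384%), of which 24 were higher (0.144%) and 40 lower (0.24%), and 1237 genes (7.43%) had an exact permutation p-value under 0.05. Since no gene passed the adjusted test, the genes below are described as higher or lower with their values, and none is called changed.

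**Figure D1:**
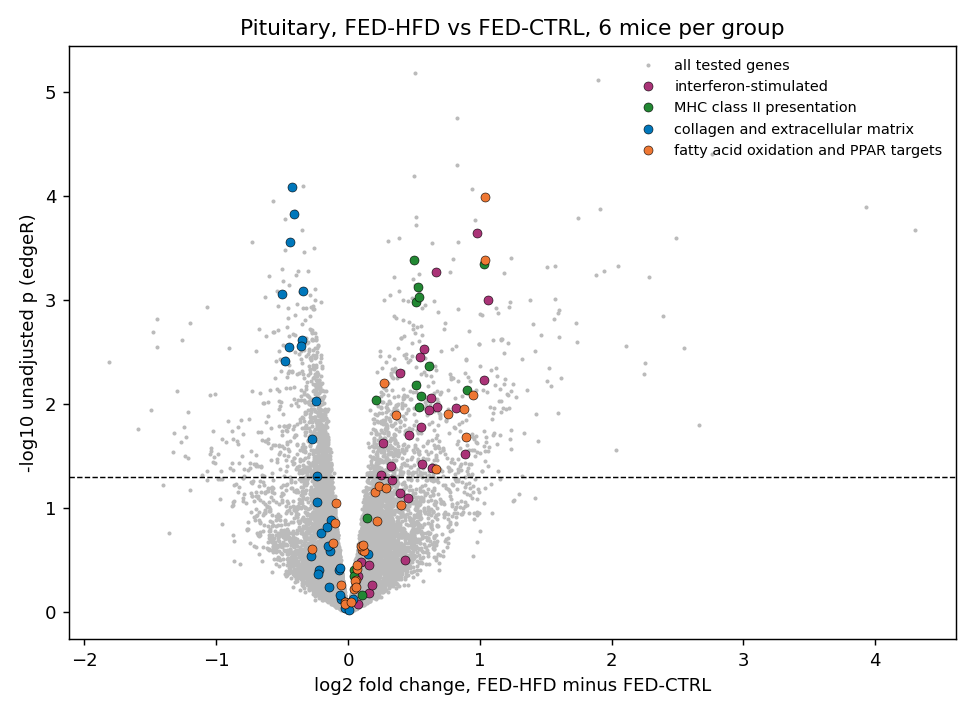
Log2 fold change (x axis) against -log10 of the unadjusted edgeR p-value (y axis) for the 16657 pituitary genes, 6 mice per group; coloured points are members of 4 gene lists and the dashed line is an unadjusted p-value of 0.05. Interferon-stimulated and MHC class II genes lie to the right, collagen genes to the left. The point furthest to the right is Cox8b, a brown adipocyte gene that was high in 1 mouse.

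The genes with the smallest p-values, Ly6c1 and Serpina3g, were higher in FED-HFD. Ly6c1 (ENSMUSG00000079018, chromosome 15, 74915847 to 74920686, GRCm39), a surface protein of endothelial cells and monocytes, had log2 CPM values of 4.11 to 4.28 (median 4.18) in FED-CTRL and 4.35 to 4.92 (median 4.73) in FED-HFD. Every FED-HFD mouse lay above every FED-CTRL mouse, with a log2FC of 0.51 ± 0.09 (SE) and an adjusted p-value of 0.0632. Serpina3g (ENSMUSG00000041481, chromosome 12, 104202386 to 104208203), a serine protease inhibitor of immune cells, spanned 0.31 to 2.04 in FED-CTRL with a median of 1.31, and 1.32 to 4.58 in FED-HFD with a median of 2.97. Its log2FC was 1.90 ± 0.35 at the same adjusted p-value, and the groups overlapped. Both have close paralogs in their gene clusters, and how reads were split among them was not tested.

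Klf11, a transcription factor of the Krüppel-like family, ranged from 1.98 to 2.86 in FED-CTRL and from 2.87 to 3.60 in FED-HFD, without overlap (log2FC 0.83 ± 0.17, adjusted p-value 0.15). Slc30a4, a zinc transporter, was higher by 0.52 ± 0.12, and 5 of the 6 FED-HFD mice lay above the FED-CTRL median. Tmsb4x, which binds monomeric actin, was at 7.15 to 7.44 in FED-CTRL and 7.44 to 7.80 in FED-HFD, with the groups meeting but not overlapping (log2FC 0.31 ± 0.07). Slfn2, a Schlafen protein of leukocytes, and Il18bp, the secreted binding protein of interleukin 18, were higher by 0.96 ± 0.22 and 0.52 ± 0.12. All 6 FED-HFD mice exceeded the FED-CTRL median for both.

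Among the genes lower in FED-HFD, those with the smallest p-values were Mink1 and the collagen gene Col1a1, which is described with the matrix genes. Mink1, a kinase of the Ste20 group, was at 6.62 to 7.10 (median 6.74) in FED-CTRL and 6.36 to 6.59 (median 6.44) in FED-HFD, with a log2FC of -0.34 ± 0.07 and an adjusted p-value of 0.15. Mthfd1l, a mitochondrial enzyme of folate metabolism, was at 3.02 to 3.46 in FED-CTRL and 2.47 to 2.94 in FED-HFD (log2FC -0.57 ± 0.13). Tesc, a calcium-binding protein, was at 4.67 to 4.98 against 4.16 to 4.50 (log2FC -0.40 ± 0.09). In these 3 genes the groups did not overlap. Syt7, a calcium sensor of exocytosis, had a log2FC of -0.26 ± 0.06. The corepressor Rcor2 had a log2FC of -0.50 ± 0.13, also without overlap, and the adhesion gene Dscaml1 one of -0.48 ± 0.12. Nol6, a factor of ribosome assembly, was at 6.66 to 7.14 in FED-CTRL and 6.52 to 6.82 in FED-HFD (log2FC -0.33 ± 0.08).

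Another 5 of the named genes had an absolute log2FC over 0.58 and groups that overlapped. Bpifa1, a secreted protein of airway and glandular epithelium, was at -3.45, the value of a count of 0, to 1.97 in FED-CTRL and at -0.08 to 3.91 in FED-HFD (log2FC 2.25 ± 0.74). Erfe, the erythroblast hormone erythroferrone, was at 1.45 to 3.73 and 1.23 to 2.26 (log2FC -0.91 ± 0.28). Slc47a1, an exporter of organic cations, was at -0.18 to 1.38 and -0.69 to 0.65 (log2FC -0.83 ± 0.33). The clustered protocadherins Pcdhgc5 and Pcdha8, neuronal adhesion genes that share exons with the other members of their clusters, had log2FC values of -0.73 ± 0.18 and -0.92 ± 0.39.

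**Figure D2:**
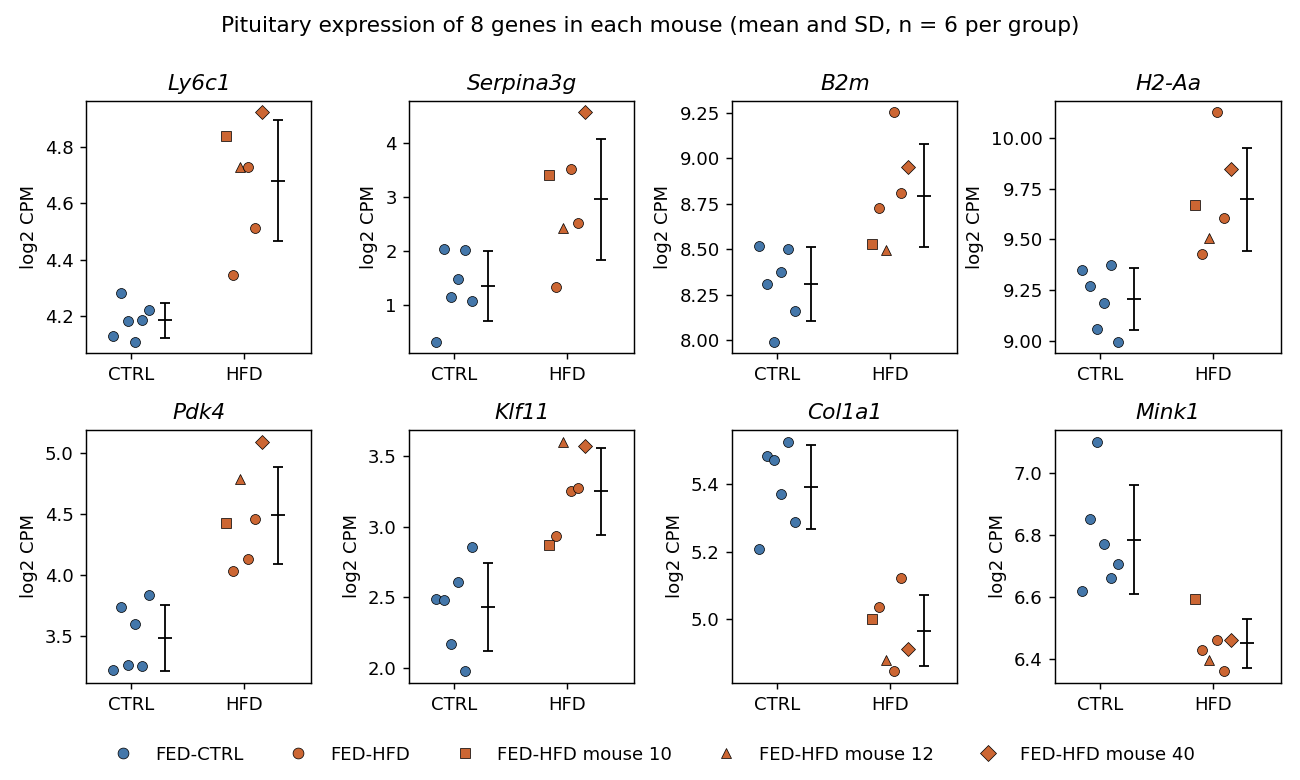
Log2 CPM of 8 genes in each pituitary (points are mice, bars the mean and SD, 6 mice per group), with FED-HFD mice 10, 12 and 40 given their own symbols. The groups do not overlap in Ly6c1, H2-Aa, Pdk4, Klf11, Col1a1 and Mink1, and overlap in Serpina3g and B2m.

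Interferon signals through JAK kinases to transcription factors that bind the interferon-stimulated response element or the gamma-activated sequence in the promoters of target genes. The genes induced include antiviral effectors, guanylate-binding and immunity-related GTPases, chemokines and the machinery of antigen presentation. All 29 tested interferon-stimulated genes of the list had a log2FC above 0 in FED-HFD, with a median of 0.46 against 0.00 over all tested genes. At an unadjusted p-value under 0.05, 19 of the 29 were higher and 0 lower. Without mouse 40 the count was 8, without mice 10, 12 and 40 it was 3, and by voom with quality weights it was 6. The mean log2 CPM of the list was 2.83 to 3.55 in FED-CTRL and 2.87 to 4.47 in FED-HFD, so the groups overlapped, and mouse 40 was the highest.

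Promoters of 4 genes named here for interferon response, chemokine signalling or antigen presentation are shown because their windows hold a DNA element known from interferon-stimulated genes. The sequences are from RefSeq (GRCm38.p6, another build than that of the gene positions above), 5′ to 3′ on the strand of the gene and upstream of the start site, and the capitals mark matches to the interferon-stimulated response element, searched as GAAA and GAAA spaced by any 2 bases, on both strands and with overlaps allowed. The first match, counted from the 5′ end of the window, began 78 bases before the start site in Isg15, 45 in Gbp3, 213 in Cxcl10 and 139 in B2m. A further window of Gbp3 held none.
Isg15, chr4:156200825-156200946, minus strand: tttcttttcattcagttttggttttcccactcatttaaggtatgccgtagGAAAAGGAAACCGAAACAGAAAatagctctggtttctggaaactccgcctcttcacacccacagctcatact
Gbp3, chr3:142559949-142560043, plus strand: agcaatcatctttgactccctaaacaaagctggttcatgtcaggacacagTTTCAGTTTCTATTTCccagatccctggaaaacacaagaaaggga
Cxcl10, chr5:92349043-92349139, minus strand: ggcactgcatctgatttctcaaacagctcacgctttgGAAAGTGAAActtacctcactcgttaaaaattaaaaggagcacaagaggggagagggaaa
B2m, chr2:122147498-122147607, plus strand: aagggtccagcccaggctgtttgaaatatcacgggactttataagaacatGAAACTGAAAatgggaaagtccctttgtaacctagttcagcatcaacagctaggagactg

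A promoter window of 300 bases was found for 11975 of the tested genes, and 447 of these (3.73%) held this element, as did 3.44% of all 32851 windows. It was present in 13 of 21 interferon-stimulated genes with a window (61.9%) and in 10 of 11 interferon-induced GTPase genes (90.9%). Of the MHC class I genes with a window 5 of 20 (25%) held it, and 2 of the 13 higher ones (15.4%). Of the MHC class II genes 1 of 11 (9.09%) did. Of 506 genes higher in FED-HFD at an unadjusted p-value under 0.05 that had a window, 63 (12.5%) held it, and of 661 lower genes 13 (1.97%). The gamma-activated sequence, searched as TTC and GAA spaced by any 3 bases, was in 8.38% of the tested genes, 11.9% of the higher genes and 6.96% of the lower genes. The interferon-stimulated and GTPase lists were chosen as interferon targets, so the motif share in them is a description.

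Isg15, a ubiquitin-like protein conjugated to other proteins in interferon-treated cells, was at 1.66 to 2.42 (median 2.22) in FED-CTRL and 2.23 to 3.48 (median 2.73) in FED-HFD. All 6 FED-HFD mice lay above the FED-CTRL median (log2FC 0.67 ± 0.17, adjusted p-value 0.184). Gbp3, a guanylate-binding protein, was at 3.30 to 4.62 in FED-CTRL and 4.16 to 6.19 in FED-HFD (log2FC 0.98 ± 0.23). Bst2, which tethers budding viruses to the cell, and Ifit1, which binds foreign RNA, had log2FC values of 0.58 ± 0.18 and 0.63 ± 0.22. Within the Ifit and Gbp families, reads shared between near-identical members could have been assigned to either.

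Of the chemokines, Cxcl10 was at -1.49 to 0.45 (median -0.55) in FED-CTRL and -0.81 to 4.06 (median 0.53) in FED-HFD, with the next highest FED-HFD mouse at 1.23. Its log2FC was 2.49 ± 0.60, and 0.92 without mouse 40. Cxcl9 showed the same pattern, with a highest value of 3.77 in mouse 40 and 2.12 in the next mouse (log2FC 2.29 ± 0.60, and 1.37 without mouse 40). All 17 interferon-induced GTPase genes, a list added after the values were seen, were higher at an unadjusted p-value under 0.05, with a median log2FC of 1.16. Without mouse 40 the count was 9, by voom with quality weights 2, and without mice 10, 12 and 40 it was 3. Igtp, one of them, was at 5.31 to 7.23 in FED-CTRL and 5.46 to 8.95 in FED-HFD, and Gbp10, the one with the widest difference, at -2.89 to 1.12 and -2.79 to 4.22 (log2FC 2.25 ± 0.72). In both mouse 40 was the highest and mouse 11 the lowest of FED-HFD, so the groups overlapped. Among interferon ligands, receptors and regulators, also added afterwards, 4 of 10 were higher, 2 without mouse 40, 2 by voom with quality weights and 1 without mice 10, 12 and 40. Irf2 was the one without overlap (4.41 to 4.62 against 4.63 to 4.83, log2FC 0.22 ± 0.07).

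The genes of MHC class I antigen presentation were higher in 17 of 24 and lower in 0, and 23 of the 24 had a log2FC above 0. This list and that of class II were added after the values were seen. B2m, the light chain of class I molecules, was at 7.99 to 8.52 (median 8.34) in FED-CTRL and 8.49 to 9.26 (median 8.77) in FED-HFD. Its log2FC was 0.50 ± 0.11 with an adjusted p-value of 0.15. The heavy chains H2-K1 and H2-D1 were higher by 0.39 ± 0.09 and 0.35 ± 0.09, and the immunoproteasome subunit Psmb9 by 0.64 ± 0.15. For Psmb9, H2-K1 and H2-D1 all 6 FED-HFD mice exceeded the FED-CTRL median, and the heavy chains share long stretches of sequence with each other. Without mouse 40 the count of the list was 8, without mice 10, 12 and 40 it was 8, and by voom with quality weights 7.

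MHC class II genes, which present peptides from outside the cell, were higher in 11 of 15 and lower in 0, with a median log2FC of 0.52. Leaving out any 1 of the 12 mice gave 10 or 11, leaving out mice 10, 12 and 40 gave 9, and voom with quality weights 7. H2-Aa, the alpha chain of a class II molecule, had a median of 9.23 and a highest value of 9.38 in FED-CTRL and was at 9.43 to 10.13 (median 9.64) in FED-HFD, without overlap (log2FC 0.50 ± 0.13). Cd74, the invariant chain, did not overlap either, with 9.85 to 10.39 against 10.40 to 11.27 (log2FC 0.51 ± 0.14). H2-DMb2, a chain of the peptide exchange factor, had a log2FC of 1.03 ± 0.26, and Ctss, a protease that trims the invariant chain, one of 0.53 ± 0.14. Ciita, the master regulator of class II transcription, ranged from 3.01 to 4.92 and from 3.55 to 6.20 (log2FC 0.90 ± 0.31), with mouse 40 the highest.

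Some markers of the cells that carry class II molecules were also higher at an unadjusted p-value under 0.05. Of 9 macrophage markers, 4 were higher and 0 lower, in each of the fits that left out 1 mouse as well. The complement genes C1qc, C1qb and C1qa had log2FC values of 0.48 ± 0.13, 0.46 ± 0.13 and 0.42 ± 0.13, and Aif1 0.57 ± 0.19. Csf1r, the receptor for macrophage growth factor, was at 5.67 to 6.03 in FED-CTRL and 5.60 to 6.12 in FED-HFD, with a log2FC of 0.00 ± 0.09, and Adgre1 had a log2FC of 0.14 ± 0.15. The summed level of the 9 markers was 207 to 250 CPM in FED-CTRL and 220 to 351 CPM in FED-HFD. That of 9 T and B cell markers was 17.5 to 22.5 CPM and 22.6 to 27.5 CPM, without overlap, but of the 5 that could be tested 1 was higher, Ighm (log2FC 0.49 ± 0.13). The mean log2 CPM of those 5 was 1.22 to 1.66 in FED-CTRL and 1.58 to 1.98 in FED-HFD, so by that measure the groups overlapped. Of 7 dendritic cell genes added afterwards, 4 were higher: Irf8 (1.24 ± 0.31), Xcr1 (1.51 ± 0.39), Batf3 (1.13 ± 0.38) and Clec9a (1.19 ± 0.40). Without mice 10, 12 and 40 the count was 2. The mean log2 CPM of the dendritic cell genes was 0.33 to 0.77 in FED-CTRL and 0.94 to 1.94 in FED-HFD, without overlap. Their summed level was 21.1 to 29.6 CPM in FED-CTRL and 24.4 to 108 CPM in FED-HFD, so by that measure the groups overlapped. Xcr1 reached no more than 62 counts in a library. The part of these cells in the antigen presentation and interferon results was not tested.

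**Figure D3:**
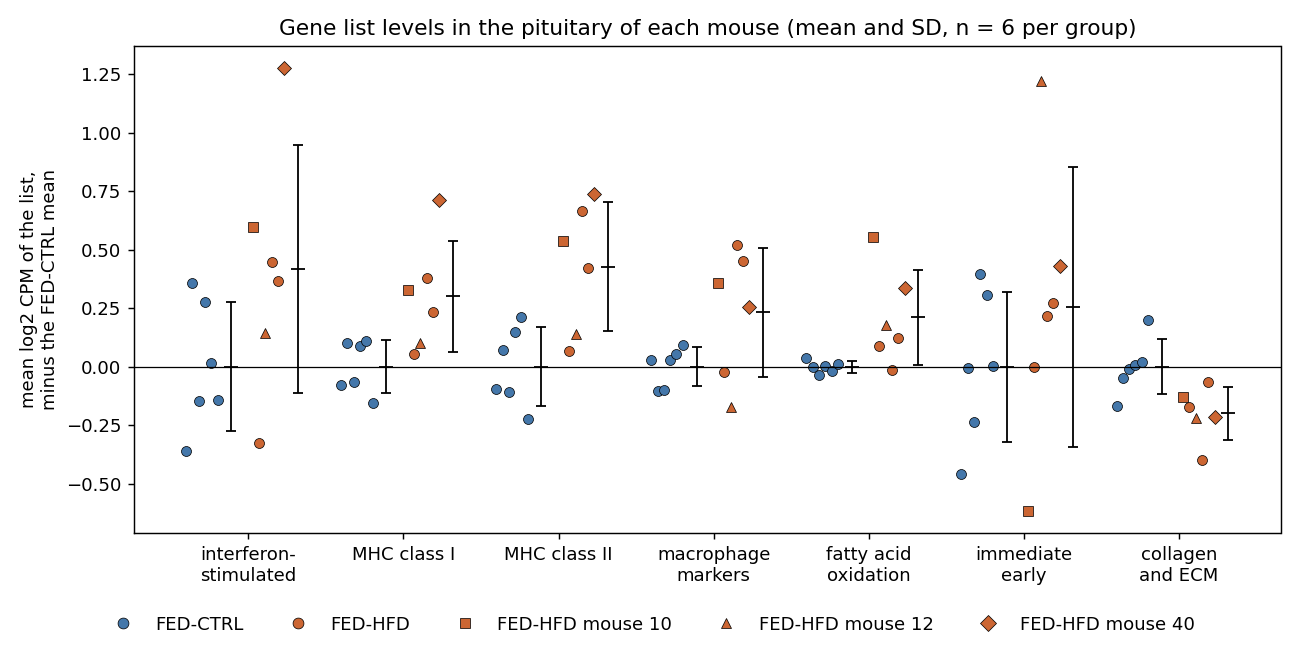
Mean log2 CPM of 7 gene lists in each pituitary, minus the FED-CTRL mean of that list (points are mice, bars the mean and SD, 6 mice per group). Mouse 40 is the highest for the interferon-stimulated and both MHC lists, mouse 10 for fatty acid oxidation and mouse 12 for immediate early genes. The collagen level is below the FED-CTRL mean in all 6 FED-HFD mice, but the groups overlap.

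Genes of fatty acid oxidation and targets of the PPAR nuclear receptors, which sense fatty acids, were higher in 9 of 32 and lower in 0, with a median log2FC of 0.11. Pdk4, a kinase that turns off pyruvate dehydrogenase and so spares glucose, was at 3.21 to 3.83 (median 3.43) in FED-CTRL and 4.03 to 5.10 (median 4.45) in FED-HFD. The groups did not overlap, and the log2FC was 1.04 ± 0.23 (adjusted p-value 0.15). Angptl4, a secreted inhibitor of lipoprotein lipase, was at 3.19 to 4.33 and 4.09 to 5.22 (log2FC 1.04 ± 0.26), with all 6 FED-HFD mice above the FED-CTRL median. Acadl, an acyl-CoA dehydrogenase, and Acot1, an acyl-CoA thioesterase, were higher by 0.28 ± 0.09 and 0.37 ± 0.14. Acot1 shares a gene cluster with close paralogs.

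The other members of that list that were higher were the lipid droplet proteins Plin4 and Plin5, the fatty acid carriers Cd36 and Fabp3, and Pparg, and in each mouse 10 was the highest. Fabp3, for example, was at 4.73 in mouse 10, against 2.92 in the next FED-HFD mouse and 2.30 to 2.68 in FED-CTRL. Without mouse 10, 4 genes of the list were higher and 1 lower, and without mouse 40, 9 and 1. Without mice 10, 12 and 40, 3 were higher and 1 lower, with a median log2FC of 0.02. By voom with quality weights 6 were higher and 1 lower. The same library held the brown adipocyte genes, since Cox8b was at 5.82 in mouse 10 and at most -0.81 in the other FED-HFD mice. All 4 brown adipocyte genes that could be tested were higher with mouse 10 and 0 without it. The 4 white adipocyte markers were too low to be tested, with sums of 0 to 0.452 CPM in FED-CTRL and 46.1 CPM in mouse 10. The highest FED-HFD values of Pdk4 and Angptl4 were in mice 40 and 12, and the part of adipocyte RNA in these 2 genes was not tested.

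Collagen and extracellular matrix genes were mostly lower in FED-HFD. The mean log2 CPM of the list was 4.35 to 4.72 in FED-CTRL and 4.12 to 4.46 in FED-HFD, so the groups overlapped. Of 31 genes tested, 12 were lower at an unadjusted p-value under 0.05 and 0 higher, with a median log2FC of -0.22, and 28 of the 31 were below 0. The count was 10 to 14 when any 1 mouse was left out, 10 without mice 10, 12 and 40, 12 by voom with quality weights and 11 after an offset for GC content. Col1a1 (ENSMUSG00000001506, chromosome 11, 94827050 to 94843868), a chain of type I collagen, was at 5.21 to 5.52 (median 5.42) in FED-CTRL and 4.85 to 5.12 (median 4.96) in FED-HFD. The groups did not overlap, with a log2FC of -0.43 ± 0.09 and an adjusted p-value of 0.15.

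The microfibril collagens Col6a1 and Col6a2 had log2FC values of -0.41 ± 0.09 and -0.34 ± 0.09, and the basement membrane collagens Col15a1 and Col4a2 -0.44 ± 0.11 and -0.36 ± 0.11. Col3a1 was at 4.32 to 4.84 in FED-CTRL and 3.58 to 4.26 in FED-HFD, and Col5a1 at 2.80 to 3.34 and 2.20 to 2.71, both without overlap. Fibroblast markers were lower in 3 of 5, which were Col1a1, Col1a2 (-0.35 ± 0.11) and Pdgfra (-0.46 ± 0.13), and Col1a1 and Col1a2 are in both lists. The 5 markers summed to 387 to 555 CPM in FED-CTRL and 347 to 435 CPM in FED-HFD. Of 6 pericyte and smooth muscle markers 1 was lower, the receptor Pdgfrb (log2FC -0.31 ± 0.10), 0 were higher and 2 had a log2FC above 0. These 6 summed to 84.0 to 101 CPM in FED-CTRL and 71.5 to 93.9 CPM in FED-HFD, so the groups overlapped. The endothelial markers summed to 453 to 548 CPM and 473 to 551 CPM. Whether fewer fibroblasts or less matrix RNA per fibroblast was present cannot be told apart.

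Among the hormone transcripts, Cga was at 10.85 to 11.43 (median 11.18) in FED-CTRL and 11.21 to 11.69 (median 11.46) in FED-HFD, with all 6 FED-HFD mice above the FED-CTRL median. Its log2FC was 0.31 ± 0.12, the adjusted p-value 0.382, and the exact two-sided permutation p-value 0.0346. Gh was at 17.55 to 18.36 and 17.64 to 18.49 (log2FC 0.14 ± 0.13), and Prl at 12.86 to 13.50 and 13.20 to 13.83 (log2FC 0.23 ± 0.17). Pomc had a log2FC of -0.09 ± 0.10, Tshb 0.06 ± 0.10 and Fshb 0.21 ± 0.14. For these 5 genes the groups overlapped and the exact permutation p-values were 0.156 to 0.636. Lhb reached at most 14 counts in a FED library, far below Fshb, and no difference could be read from it.

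**Figure D4:**
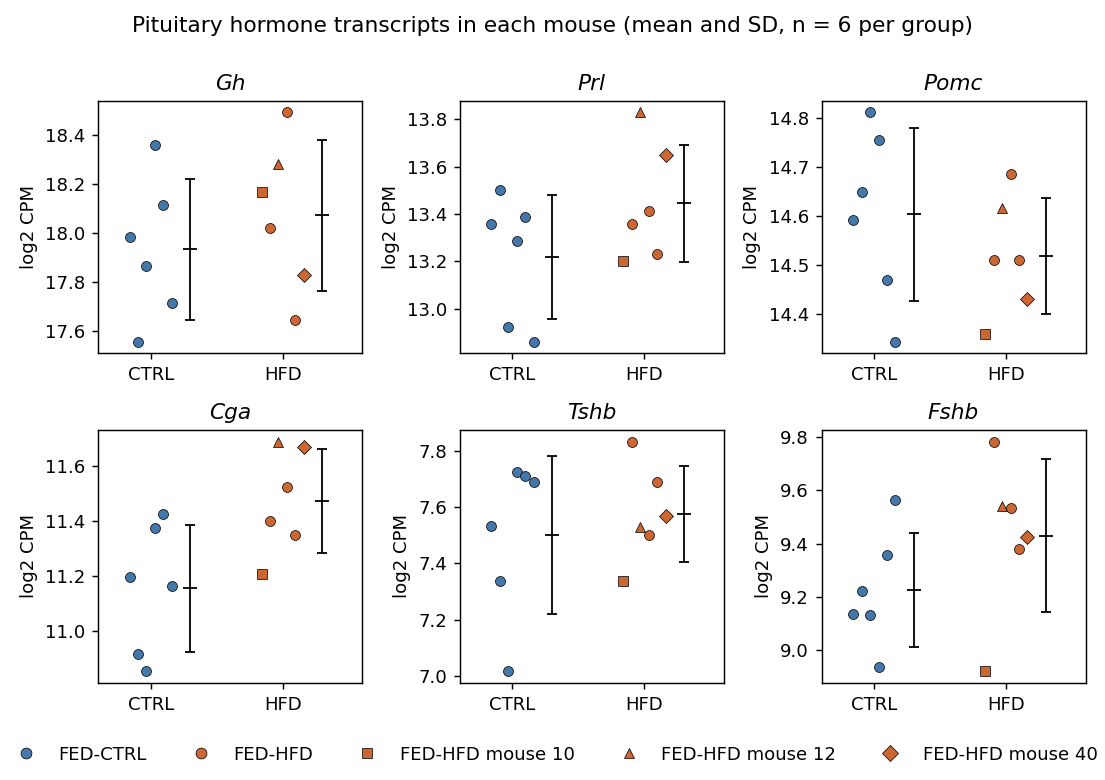
Log2 CPM of 6 hormone transcripts in each pituitary (points are mice, bars the mean and SD, 6 mice per group). The groups overlap in every panel, and the FED-HFD mice lie above the FED-CTRL median in Cga.

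Among 32 receptors for hypothalamic and peripheral signals, 1 was higher and 2 lower, close to the shares of all genes (4.41% higher and 5.24% lower). Leaving out a mouse gave 1 or 2 higher and 0 to 3 lower (0 without FED-CTRL mouse 15). Trhr, the receptor for thyrotropin-releasing hormone, was at 0.10 to 0.85 (median 0.48) in FED-CTRL and 0.57 to 1.39 (median 1.05) in FED-HFD, from at most 58 counts (log2FC 0.63 ± 0.20, exact permutation p-value 0.00433). The PACAP receptor Adcyap1r1 had a log2FC of -0.22 ± 0.09, and the melanocortin receptor Mc3r, with at most 49 counts, one of -1.04 ± 0.45. In somatotropes and growth hormone feedback 0 of 17 genes were higher or lower, and none of the markers of somatotropes, lactotropes, corticotropes or melanotropes was. With an offset for GC content, 2 of the 17 genes and 1 of the 4 somatotrope markers were lower. Without FED-CTRL mouse 42 or FED-HFD mouse 10 or 40, 1 of the 17 was lower.

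Of 24 transcription factors that specify pituitary lineages, 5 were lower and 0 higher, and leaving out any 1 mouse gave 4 or 5. Gata2, required for gonadotropes and thyrotropes, was at 6.23 to 6.74 (median 6.52) in FED-CTRL and 5.97 to 6.40 (median 6.09) in FED-HFD, with a log2FC of -0.39 ± 0.11. Pitx1, a factor common to the anterior lobe lineages, had a log2FC of -0.29 ± 0.10. Lhx4 had -0.73 ± 0.25, from at most 59 counts, and Nr5a1, the gonadotrope factor SF-1, -0.18 ± 0.08. No FED-HFD mouse exceeded the FED-CTRL median in Gata2, Pitx1 and Nr5a1.

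Secretory granule genes were lower in 7 of 25 and higher in 1. Those lower were the fusion protein Stx1a (-0.34 ± 0.11), the priming factor Unc13a (-0.33 ± 0.13), the granule peptide Vgf (-0.39 ± 0.15), the granule membrane proteins Ptprn2 (-0.27 ± 0.11) and Ptprn (-0.19 ± 0.09), the convertase inhibitor Pcsk1n (-0.26 ± 0.10) and Rab3d (-0.20 ± 0.08). Scg5, the chaperone of the convertase PC2, was the higher one (0.25 ± 0.09). With an offset for GC content 4 were lower, without mice 10, 12 and 40 it was 4, and leaving out a mouse gave 3 to 7 (3 without FED-CTRL mouse 41).

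Immediate early genes, which neurons and endocrine cells induce within minutes of stimulation, were higher in 7 of 29 and lower in 0, with a median log2FC of 0.31. Mouse 12 was the highest in all 7. Fos was at 9.20 in mouse 12, at 2.11 to 4.00 in the other FED-HFD mice and at 2.89 to 4.72 in FED-CTRL, so its log2FC of 2.67 ± 1.04 came from 1 mouse. Dusp1 was at 7.28 in mouse 12 and at most 4.55 in the others. Without mouse 12 the count was 0, without FED-CTRL mouse 14 it was 4, and by voom with quality weights 4.

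The core clock list held 3 higher and 3 lower genes of 22. The repressor Nfil3 had a log2FC of 0.44 ± 0.14. Dbp, a transcription factor driven directly by the clock, was at 6.38 to 7.29 (median 6.97) in FED-CTRL and 6.35 to 6.62 (median 6.51) in FED-HFD, with a log2FC of -0.45 ± 0.14. Nr1d1, the repressor REV-ERB alpha, had a log2FC of -0.31 ± 0.15. The cryptochromes differed in sign, with Cry1 at 0.33 ± 0.16 and Cry2 at -0.33 ± 0.12. The labels give no time of collection.

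Among genes of fatty acid and triglyceride synthesis, 4 of 26 were lower and 1 higher. The lower count was 2 without FED-CTRL mouse 24 or 41 or FED-HFD mouse 11 and with an offset for GC content, and 7 without FED-CTRL mouse 14 or FED-HFD mouse 10 and by voom with quality weights. The desaturases Fads1 and Fads2 were at 7.83 to 8.21 and 7.97 to 8.33 in FED-CTRL, and at 7.69 to 7.94 and 7.81 to 8.08 in FED-HFD, with log2FC values of -0.25 ± 0.08 and -0.24 ± 0.08. Agpat2, the higher one, was at 6.06 in mouse 10 and at most 4.26 in the other FED-HFD mice. Of 24 cholesterol synthesis genes 1 was lower and 0 higher, and leaving out a mouse gave 1 to 7 lower. A log2FC below 0 was seen in 19, with a median of -0.14. The mean log2 CPM of the list differed by 0.08 in mice numbered under 20, -0.16 in those of 20 to 39 and -0.35 in those of 40 and above. Leptin and STAT3 signalling had 3 higher (Pim1, Bcl3 and Socs1) and 2 lower genes of 17. The higher count was 1 without mouse 40, where Bcl3 was highest, 5 without mouse 12 and 0 without mice 10, 12 and 40. The lower count was 0 or 1 whichever mouse was left out. Insulin and nutrient signalling had 4 lower of 25, among them Tsc2 (-0.22 ± 0.08) and Mtor (-0.19 ± 0.08), which restrain and drive growth. That count was 1 with an offset for GC content and 1 without FED-CTRL mouse 16 or FED-HFD mouse 13, 2 without FED-CTRL mouse 15 or FED-HFD mouse 11, and at most 6 in the other fits that left out a mouse.

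The glucocorticoid response list had 5 higher genes of 23, of which Pdk4, Angptl4 and Plin4 are also in the fatty acid list and Dusp1 among the immediate early genes, and Lcn2 had a log2FC of 0.30 ± 0.12. Without mice 10, 12 and 40 the count of the list was 2. The unfolded protein response had 4 lower of 28, but 1 with an offset for GC content, 1 without FED-CTRL mouse 41 or 42 or FED-HFD mouse 10 or 13, and 2 without FED-HFD mouse 11, 12 or 23. Imprinted genes had 3 lower of 24, 0 without mouse 12 and 1 without FED-CTRL mouse 42 or FED-HFD mouse 13 or 40. The cell cycle had 2 higher and 3 lower of 29, NRF2 targets 1 higher of 20 and thyroid hormone genes 1 higher and 1 lower of 15, and leaving out a mouse brought the cell cycle down to 1 in either direction, NRF2 targets to 0 and the lower thyroid hormone genes to 0. Inflammation had 3 higher and 1 lower of 19, but 1 higher without mouse 40, the highest mouse for this list, and 0 without mice 10, 12 and 40. The 1 lower gene was lost in 6 of the fits that left out a mouse. Among 47 nuclear and 10 mitochondrially encoded genes of the respiratory chain 0 were higher or lower. Of the 47, 6 were lower without FED-HFD mouse 10, and 1 by voom with quality weights or without mice 10, 12 and 40. Without FED-CTRL mouse 41, 2 of them were higher, and without FED-HFD mouse 13, 1 was. Against these counts stand 4.41% of all genes higher and 5.24% lower.

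The same diet contrast was available in 12 other mice, the offspring of CR20 dams, which share no library with the FED mice. In CR20-HFD against CR20-CTRL, 457 genes were higher (2.74%) and 755 lower (4.53%) at an unadjusted p-value under 0.05, together 7.28% of 16657. Of the 734 genes higher in the FED mice 348 had a log2FC above 0 in the CR20 mice, and of the 872 lower genes 336 were below 0. Together 42.6% had the same sign, and over all tested genes 44% had. The difference between the 2 diet contrasts was tested for each gene as an interaction, and 0 of 16657 passed an adjusted p-value of 0.05 by edgeR (smallest 0.314), with 1833 (11%) at an unadjusted p-value under 0.05. DESeq2 called 2.

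MHC class II genes were higher in both sets of mice. In the CR20 mice 8 of 15 were higher and 0 lower, with a median log2FC of 0.37. H2-Aa had a log2FC of 0.43 there and Cd74 one of 0.38. Macrophage markers were higher in 3 of 9. MHC class I genes were higher in 5 of 24 and lower in 0, with a median log2FC of 0.12, where 2.74% of all genes were higher. Interferon-stimulated genes were higher in 0 of 29 and lower in 0, with a median log2FC of 0.15, and GTPase genes in 0 of 17. Collagen and matrix genes were higher or lower in 0 of 31, with a median log2FC of -0.02, and Col1a1 had a log2FC of 0.05. Klf11 and Pdk4, without overlap in the FED mice, had log2FC values of -0.01 and -0.11 in the CR20 mice. Nr5a1 was -0.18 in the FED mice and 0.35 in the CR20 mice, with an adjusted interaction p-value of 0.314 by edgeR. Dbp was lower in both, by -0.45 and -0.47, and Acot1 higher in both, by 0.37 and 0.70. Of the 22 genes of the core clock list, 7 were lower and 1 higher in the CR20 mice, where 4.53% of all genes were lower.

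**Figure D5:**
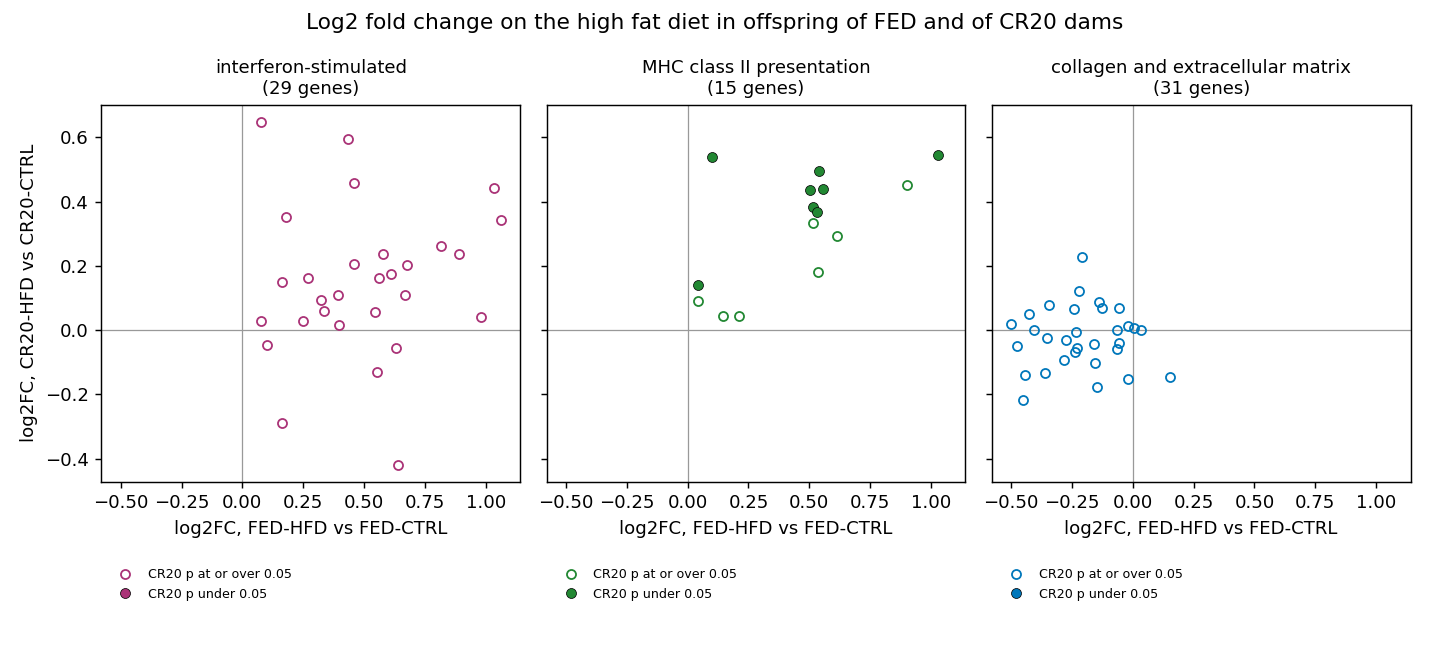
Log2 fold change on the high fat diet in the FED mice (x axis) and in the CR20 mice (y axis) for the members of 3 gene lists; filled points have an unadjusted p-value under 0.05 in the CR20 mice. MHC class II genes lie above 0 on both axes with 8 filled points of 15, whereas the collagen genes spread around 0 on the y axis with none.

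The differences moved with the GC content of the transcripts. The median GC of the longest transcript was 46.6% for the higher genes, 54.1% for the lower genes and 49.5% for all. A GC value was found for 16600 of the 16657 genes. Across the 11400 protein-coding ones with a mean log2 CPM over 2, which are not independent replicates, the Spearman correlation of log2FC with GC content was -0.36 in the FED mice and 0.30 in the CR20 mice. With the offset for GC content, 46.2% of all genes had the same sign in both sets of mice. Of the lists above, that of fatty acid oxidation then had 12 higher genes, interferon-stimulated 18 and MHC class II 12.

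In the other tissues of the same mice the diet contrast gave 1680 genes of 15964 at an adjusted p-value under 0.05 in eWAT (10.5%) and 15 of 13787 in liver (0.109%) by edgeR. Pdk4 was higher in eWAT as in the pituitary (log2FC 1.71, adjusted p-value 0.00212), and so were H2-Aa (0.75, 0.00212) and Cd74 (0.66, 0.0108). Dbp was lower in eWAT by a log2FC of -1.11 (adjusted p-value 0.0247). At an unadjusted p-value under 0.05, MHC class II genes were higher in 13 of 15 in eWAT and 10 of 15 in liver, where 15% and 3.26% of all genes were higher. Collagen genes were higher in 6 and lower in 1 of 31 in eWAT, where 15% of all genes were higher and 10.7% lower. In liver they were lower in 8 of 30, where 3.39% of all genes were lower. Interferon-stimulated genes were higher in 6 of 30 in eWAT and 9 of 30 in liver, against the same 15% and 3.26% of all genes.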

How the data were processed

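RNA from 12 pituitaries (6 FED-HFD and 6 FED-CTRL male mice) was compared, and the 12 CR20 pituitaries and the eWAT and liver of the FED mice were used beside them. Per the labels and methods, stranded total RNA libraries (TruSeq, Gold kit) were sequenced in pairs, and the authors trimmed reads with Trimmomatic (quality under 20, minimum length 36), aligned them with STAR to GRCm39 (annotation release 104) and counted them per gene with featureCounts of Subread. The methods also name a stranded mRNA kit, and the strand setting of the counting is not given in the sources used here. The deposited values are whole counts per gene, not normalised, with no replicate pooled. Columns of no known sample numbered 0. Depth was 18299494 to 23666117 counts per FED library.

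Genes were filtered with filterByExpr and scaled by TMM, and all 24 pituitary libraries were fitted by group in edgeR 4.0.16 (R 4.3.3) with its quasi-likelihood test and Benjamini-Hochberg adjustment over 16657 genes. Liver and eWAT were fitted separately in the same way. Levels are log2 CPM with a prior count of 2, log2FC is the fitted difference, and its standard error (SE) was taken from the F statistic. Single genes were also tested by the exact two-sided permutation test over 924 divisions of the mice, whose smallest p-value is 0.00216. Alternatives were limma 3.58.1 with voom, with and without quality weights, DESeq2 1.42.0, other scalings and filters, robust estimation, the 12 libraries alone, the range of the animal number (under 20, 20 to 39, 40 and above) as a covariate and leaving out each mouse. Leaving out FED-HFD mice 10 and 12, or 10, 12 and 40, and an offset for GC content were chosen after seeing the data.

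Named genes were the 12 protein-coding genes with the smallest p-values in each direction and the 5 with the highest and 5 with the lowest log2FC, at a mean log2 CPM of at least 0, the hormone genes, and members of the lists. Some genes that meet this rule are not reported here. Cox8b, Igtp and Csf1r, and the lists of MHC class I and class II presentation, interferon-induced GTPases, interferon ligands and receptors, brown adipocytes and dendritic cells were picked with the values in view. The comparison and all lists were chosen with earlier results of these data known. Scripts were tested on simulated data.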

Additional observations from a re-analysis of the deposited data

Results flagged for a closer look

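Values of the 12 FED pituitaries were examined within each group of 6 for a mouse far from the other 5, over the genes and lists named here. Of 310 such groups 25 held one. Some of these genes and lists were picked with the values in view, and lists were examined beside their own members. The groups are therefore not independent, and the count was not set against a chance rate. FED-HFD mouse 10 accounted for 9 and FED-HFD mouse 40 for 6.

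FED-HFD mouse 10 was the highest of its group for the mean log2 CPM of brown adipocyte genes (5.87) and of fatty acid and triglyceride synthesis (5.48), and for the log2 CPM of Cox8b (5.82), Plin4 (3.00), Fabp3 (4.73), Agpat2 (6.06) and Rab3d (5.85). It was the lowest for Slc30a4 (3.61) and for the mean of secretory granule genes (7.57).

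FED-HFD mouse 40 was the highest for the mean log2 CPM of interferon ligands and receptors (5.14), inflammation (3.48) and the unfolded protein response (6.96), and for Bcl3 (3.33). It was the lowest for the means of imprinted genes (5.82) and corticotrope markers (7.31). FED-HFD mouse 12 was the highest for Fos (9.20) and Dusp1 (7.28).

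FED-HFD mouse 13 had the highest mean of erythrocyte genes (10.25) and the lowest Acadl (4.81), and mouse 23 the highest mean of fibroblast markers (5.17). In FED-CTRL, mouse 14 was the lowest for Syt7 (7.38), Col4a2 (6.18) and the mean of hepatocyte markers (-1.60), mouse 41 the lowest for Bpifa1 (-3.45, a count of 0) and mouse 42 the highest for Pdgfra (4.30).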

How the results depend on the processing

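The count of genes at an adjusted p-value under 0.05 between FED-HFD and FED-CTRL was 0 in edgeR and 19 by DESeq2, 55 with no filter on low counts, 1 without mice 10 and 12, and 0 to 17 when a mouse was left out (2 without mouse 23). With no filter, 1674 genes were higher, 1399 lower and 1796 passed the relaxed limits of an unadjusted p-value under 0.05 and an absolute log2FC of at least 0.58, and with over 1 CPM in at least 6 libraries 244 did. Leaving out a mouse gave 648 to 958 higher genes, 570 to 1119 lower genes (570 without FED-CTRL mouse 16) and 337 to 434 genes past the relaxed limits. An adjusted p-value under 0.05 was reached in the CR20 contrast by 1 gene with DESeq2 and 7 with no filter, and in the interaction by 2 with DESeq2. The cause of these differences was not tested.

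Of the 98 genes described here at an unadjusted p-value under 0.05, 56 stayed under it in every alternative that gave a value, while 21 were lost by voom with quality weights and 25 without mice 10, 12 and 40. The sign turned for Cox8b (-0.45 to 4.57 when a mouse was left out, the lowest without mouse 10, -0.54 without mice 10 and 12 and -0.79 without mice 10, 12 and 40), Fos (-0.57 to 2.91, the lowest without mouse 12, then -0.36 and -0.47), Agpat2 (-0.0895 to 0.61, the lowest without mouse 10, then -0.14 and -0.16) and Plin5 (-0.0539 without mice 10, 12 and 40). It also turned for genes near 0, which were Tshb (-0.0146 to 0.11 when a mouse was left out) and Csf1r (-0.0454 to 0.0588 when a mouse was left out, -0.0437 by voom with quality weights and -0.0001 without them).

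No paired analysis was possible because the diet groups hold different mice and share no replicate number. Transcripts with few counts, such as Xcr1 and Mc3r, limit what the depth can show. Why the hormone gene Lhb had so few counts was not tested.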
